A study of Mus musculus with 36 samples.

Results

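The SMAD family is the set of 8 mouse genes Smad1, Smad2, Smad3, Smad4, Smad5, Smad6, Smad7 and Smad9, among 22350 protein-coding genes annotated on chromosomes 1 to 19 and X. A peak was counted at a gene when its centre lay in the gene body or within 100 kb of it (mouse genome build mm9, GENCODE M1 annotation). Only 1 of the 8 members, Smad9, had PAX6 peaks, and its peaks in pools 1 and 2 overlapped in the first intron. The family was chosen by measured values of these lists, namely the positions of the overlapping peaks at Smad9, so those peaks are given as a description with no test.

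PAX6 binding was measured by ChIP-seq in enteric precursor cells (EPCs), neural crest-derived cells that were taken from the ganglionic gut of CD1 mice at P7 and grown as neurosphere-like bodies (NLBs). Chromatin was precipitated with an anti-PAX6 antibody (Millipore) in 4 libraries of pool 1, 6 libraries of pool 2 and 6 libraries of pool 3. The negative control was mouse IgG (Diagenode), with 4 libraries that all carry the label of pool 1, and each pool had as many input libraries (4, 6 and 6) as ChIP libraries. All groups came from the same strain, age and tissue, and neither a genotype nor a treatment set them apart. The libraries of a pool were merged before peaks were called, so that each pool, and IgG, had 1 list of peaks, and the spread between libraries is unknown. Peak lists give no expression, so the cells could not be checked against markers.

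SMAD proteins carry the signal of TGF-β family ligands into the nucleus. Receptor-activated members are phosphorylated by type I receptors, Smad1, Smad5 and Smad9 mostly downstream of BMPs and Smad2 and Smad3 mostly downstream of TGF-β and activins. They join the common partner Smad4 and act on target genes, while the inhibitory members Smad6 and Smad7 limit the signal. BMP signalling is known to affect the differentiation of enteric neurons and glia, and PAX6 is a paired and homeodomain transcription factor known mostly for the eye, the brain and the endocrine pancreas.

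The DNA under the peak of pool 2 at Smad9 is shown first, because all of it also lay under the peak of pool 1 and it is the only stretch near a SMAD gene that peaks of both pools covered. It is the plus strand of chr3:54572952-54573162 (mm9), 211 bp in the first intron of Smad9, and the capitals mark an uninterrupted run of the unit AAC.

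Smad9, pool 2 peak: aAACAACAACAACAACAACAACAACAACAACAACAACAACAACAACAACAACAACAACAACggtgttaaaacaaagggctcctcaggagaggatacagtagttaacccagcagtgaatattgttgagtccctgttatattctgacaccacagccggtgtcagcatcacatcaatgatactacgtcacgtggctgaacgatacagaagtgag

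The run was 60 bp long, took up 28.4% of the peak and began after its first base, with 150 bases of other sequence after it. Exact copies of 50-base stretches, a length equal to the cycles of the sequencing kit, were counted in the genome on both strands. The pool 2 peak at Smad9 held the whole run, and its most copied stretch occurred 353 times. The most copied stretch of the pool 1 peak occurred 3962 times, so it reached beyond the pool 2 peak and did not lie within the run.

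Smad9 codes for a receptor-activated SMAD of the BMP branch (ENSMUSG00000027796.2, chromosome 3 from 54559504 to 54605179, plus strand, 45.7 kb). Its pool 1 peak lay from 54572814 to 54573365 and was 552 bp wide. The score of a peak, 10 times the negative log10 of the p-value of the peak caller, was 54.2, which ranked 395 of the 491 peaks of pool 1, with 19.6% of the list scoring lower. In pool 2 the peak lay from 54572952 to 54573162, was 211 bp wide and scored 177.55, which ranked 29 of 1032 with 97.1% of the list scoring lower. So the same place stood low in the list of pool 1 and near the top of that of pool 2. Scores depend on sequencing depth and were compared only by rank within a list. Depth is unknown from these lists.

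The pool 2 peak lay wholly inside the pool 1 peak and covered 38.2% of it, and the pool 1 peak ran 138 bp further on one side and 203 bp further on the other. Their centres were 32 bp apart. The pool 2 peak was narrow, since only 10 peaks of that list were narrower, the narrowest being 204 bp, and 1 of them also scored higher. No IgG peak overlapped either peak, and the closest one lay 686 kb before the pair. Pool 3 had no peak there, its closest lying 892 kb after the pair in an intron of Nbea with a score of 106.97 (rank 340 of 724).

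Both peaks were intronic and far from the promoter. They lay in intron 1 of Smad9-001, the annotated coding transcript with 6 exons, and their centres were 13585 bp (pool 1) and 13553 bp (pool 2) downstream of the start of the gene. This intron spans 26460 bp. The pool 2 peak began 13335 bp after exon 1, ended 12914 bp before exon 2 and was 13120 bp from the first coding base. The closest start site of a coding gene was that of Smad9 itself. Within 50 kb the annotation also holds Alg5 at 18.0 kb, Exosc8 at 33.7 kb, Rfxap at 34.0 kb, Fam48a at 40.4 kb and the pseudogene Gm10254 at 41.4 kb from the pool 2 peak, so the same pair was counted for each of these 4 coding genes.

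**Figure D1:**
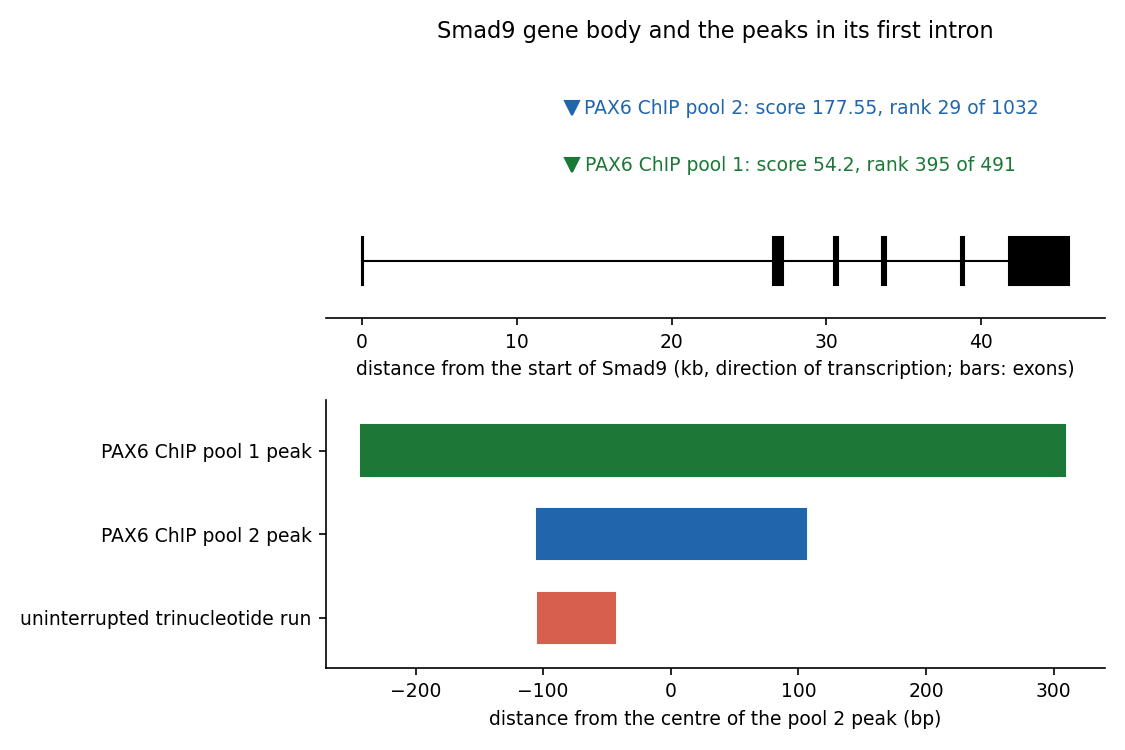
Upper panel: Smad9 by distance from its start (kb), with exons as bars and the centres of the pool 1 and pool 2 peaks as triangles, both near 13.6 kb in the first intron. Lower panel: the peaks and the uninterrupted trinucleotide run, by distance from the centre of the pool 2 peak (bp). The 211 bp pool 2 peak lies inside the 552 bp pool 1 peak, and the run lies at its left edge.

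The other BMP-branch members had no peak of any list. Smad1 (ENSMUSG00000031681.8, chromosome 8 from 81862294 to 81923417, minus strand) had its nearest PAX6 peak 303 kb away, in pool 3, in an intron of Zfp827, with a score of 81.01 (rank 454 of 724). That was the PAX6 peak closest to any member beyond the 100 kb limit. Its nearest peaks in the other lists were 705 kb away in pool 2 and 11461 kb away in pool 1, against 1262 kb in IgG. Smad5 (ENSMUSG00000021540.9, chromosome 13 from 56804371 to 56843738, plus strand) had its nearest PAX6 peak 873 kb away in pool 1, in an intron of Spock1, a proteoglycan gene. This peak ranked 10 of 491 with a score of 95.0, but all of its 745 bp lay inside an IgG peak of 1070 bp, which at 209.19 was the best scoring peak of the IgG list. Near Smad5 the nearest PAX6 signal was thus also present in the negative control.

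The members of the TGF-β and activin branch had no peak either. Smad3 (ENSMUSG00000032402.6, chromosome 9 from 63494574 to 63605801, minus strand), at 111 kb the longest gene of the family, had its nearest PAX6 peak 1227 kb away in pool 2. The IgG peak nearest to it was 151 kb away, the closest peak of any list to stay just outside the limit. It is the same IgG peak that was counted at Smad6. Smad2 (ENSMUSG00000024563.9, chromosome 18 from 76401234 to 76465385, plus strand) had its nearest PAX6 peak 1010 kb away, a pool 2 peak in an intron of the sialyltransferase gene St8sia5, against 1378 kb for IgG. The common partner Smad4 (ENSMUSG00000024515.7, chromosome 18 from 73798663 to 73863434, minus strand) lay farthest from PAX6 peaks, with the nearest at 3216 kb in pool 3, against 221 kb for IgG.

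Of the inhibitory members, Smad6 had the only IgG peak of the family. Smad6 (ENSMUSG00000036867.5, chromosome 9 from 63800953 to 63869866, minus strand) had this peak 44.2 kb beyond its 3′ end, in intergenic DNA from 63756538 to 63756895, 108 kb from its start. The peak was 358 bp wide and scored 68.75, a score that 67 peaks of the list shared, with rank 355 of 1007 and 58.2% of the list scoring lower. No PAX6 peak overlapped it, and the nearest PAX6 peak to Smad6 was 963 kb away in pool 2. Smad7 (ENSMUSG00000025880.5, chromosome 18 from 75527183 to 75555589, plus strand), at 28.4 kb the shortest gene of the family, had its nearest PAX6 peak 1920 kb away in pool 2, against 504 kb for IgG.

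The distances to the nearest peaks were also set beside those of all coding genes. The median distance to the nearest PAX6 peak of any pool was 986 kb over the 8 members, against 415 kb over all protein-coding genes. By list, the medians were 3722 kb for members against 1908 kb for all coding genes in pool 1, 1118 against 968 kb in pool 2 and 2265 against 1226 kb in pool 3. For IgG the order turned round, with 588 kb for members against 967 kb for all coding genes. These distances are not independent, because Smad2, Smad4 and Smad7 lie near each other on chromosome 18 and share some of their nearest peaks, and Smad3 and Smad6 are neighbours on chromosome 9. Within 500 kb, Smad1 had 1 peak of pool 3 and Smad9 had 1 each of pools 1 and 2. In the same span Smad3, Smad4 and Smad6 had 1 of IgG each, which is the same peak for Smad3 and Smad6. Smad2, Smad5 and Smad7 had none of any list there.

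**Figure D2:**
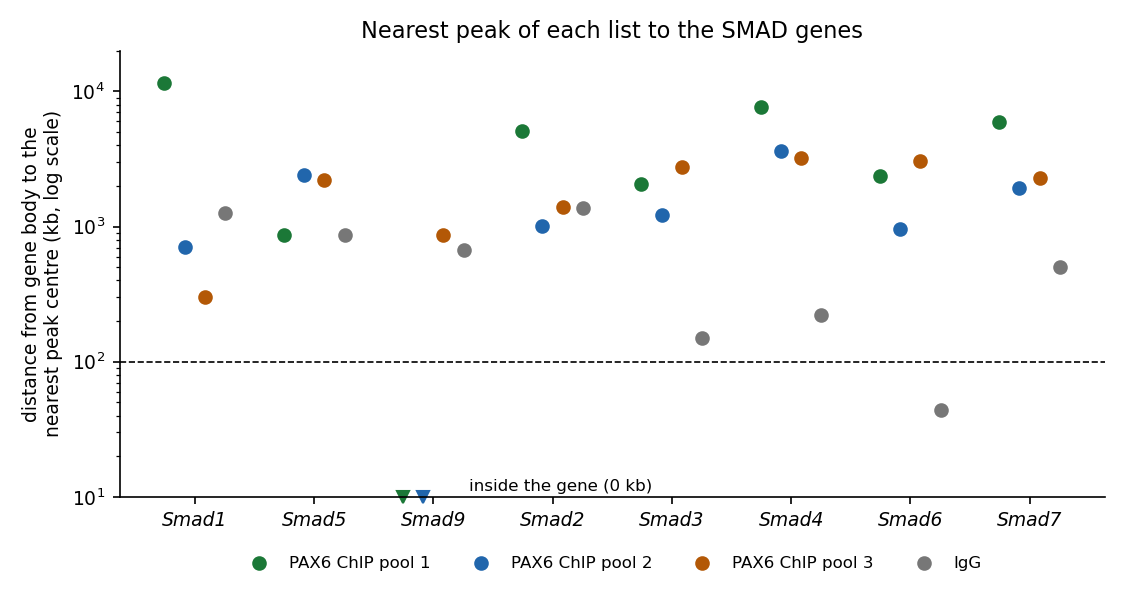
Distance from each SMAD gene to the nearest peak centre of each list (kb, log scale), BMP-branch members first. Triangles on the axis at Smad9 stand for peaks inside the gene (0 kb), and the dashed line is the 100 kb limit. Only the pool 1 and pool 2 peaks at Smad9 and the IgG peak at Smad6, 44.2 kb away, lie below it.

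The member counts were read beside the shares of all 22350 protein-coding genes. Pool 1 had a peak at 1 of 8 members, against 4.25% of all coding genes, and pool 2 at 1 of 8, against 8.08%. Pool 3 had none, against 6.84%, and IgG had a peak at 1 of 8, against 8.63%. A PAX6 peak of any pool was found at 1 of 8 members (12.5%), against 17.5% of all coding genes. Peaks of at least 2 pools were counted at 1 of 8 members, against 1.56%, and overlapping peaks of at least 2 pools at 1 of 8, against 0.251% or 56 genes. Nothing is read from the PAX6 counts of 1 of 8, because each is Smad9, and its pair was the reason for the choice of the family. No other member had a PAX6 peak in its window. Members were also longer than most genes, with a median gene body of 62.6 kb against 15.4 kb, which widens the span in which a peak could be counted. The 8 windows covered 2.08 Mb and held 2 PAX6 peaks, 0.962 per Mb, against 0.841 per Mb over the 2639 Mb of chromosomes 1 to 19 and X. Both peaks are the pair at Smad9, 1 place called in 2 pools. This density was thus set by the choice of the family too, and nothing is read from it.

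**Figure D3:**
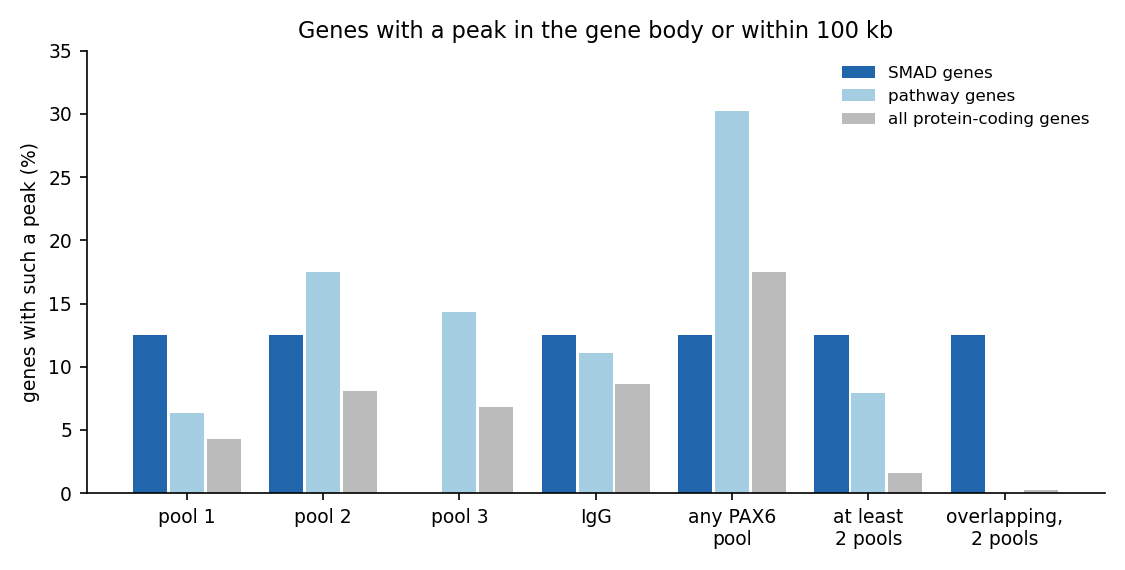
Share of the 8 SMAD genes, of 63 other genes of the pathway and of all 22350 protein-coding genes (percent) with a peak in the gene body or within 100 kb, for each list, for any PAX6 pool, for at least 2 pools and for overlapping peaks of 2 pools. Each SMAD bar of 12.5% stands for 1 of 8 genes, Smad9 in the PAX6 lists and Smad6 in IgG.

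The ranks of both Smad9 peaks differed by 77.5 points of the percentile within the list. Among all 25 overlapping pairs of 2 pools that were free of IgG peaks, this difference ran between 6.95 and 93.9 points with a median of 39.8, and 2 pairs had a larger one. Pools 1 and 2 overlapped in 5 places in all, and the other 4 lay closest to the start sites of Atg5, Gng4, Chd6 and Nxph1, with differences of 17.8, 65.5, 46.6 and 52.2 points.

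**Figure D4:**
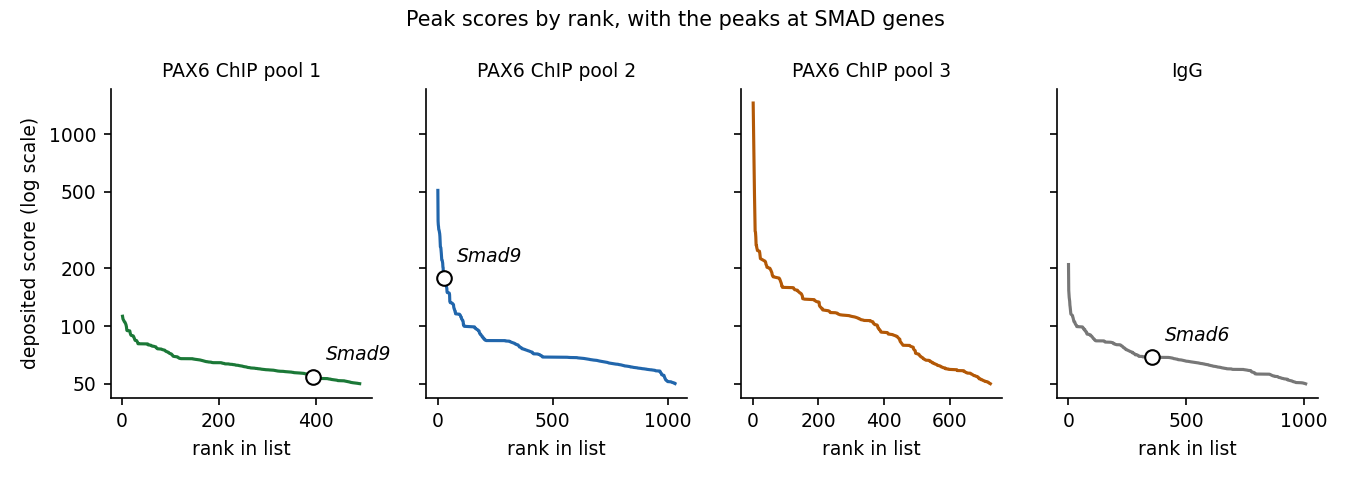
Deposited score (log scale) by rank in the 4 lists, with the peaks at SMAD genes as open circles. The Smad9 peak stands at rank 395 of 491 in pool 1 and at rank 29 of 1032 in pool 2, and the IgG peak at Smad6 at rank 355 of 1007.

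Besides Smad9, 8 coding genes in 4 regions had overlapping peaks of pools 1 and 2 and no peak of pool 3 or IgG in their windows. Likeness was measured by the summed difference of the rank percentiles in these lists. The nearest were Alg5, Exosc8, Fam48a and Rfxap, with a difference of 0 because they are neighbours that share the pair itself. Next came Nxph1, which codes for a secreted ligand of neurexins, with a summed difference of 25.4 points. Its pair lay inside the gene, where it scored 57.91 in pool 1, at rank 337, and 95.92 in pool 2, at rank 172, with 562 bp shared.

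The Smad9 peaks lacked the CA repeat that was common elsewhere in the lists. Runs of CA or TG units without interruption, 20 bp or longer, were present under 49.3% of pool 1 peaks, 56.7% of pool 2 peaks and 57.0% of pool 3 peaks, against 62.6% in IgG (TG being CA on the other strand). The longest such run was 5 bp in the pool 1 peak and 4 bp in the pool 2 peak at Smad9, and only 90 of 1018 pool 2 peaks had none longer. At Smad6 the IgG peak had a run of 5 bp at most. All 3 peaks near SMAD genes thus lacked a repeat that 55.2% of all PAX6 peaks held.

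The AAC run, searched as uninterrupted AAC or GTT units of at least 20 bp in any phase after it was noticed at Smad9, was found mainly in pool 2. Pool 2 had it in 119 of its 1018 peaks (11.7%), pool 1 in 7 of 489 (1.43%) and pool 3 in 3 of 712 (0.421%), against 4 of 1006 (0.398%) for IgG. In pool 2 such peaks crowded at the top of the list. Of the 50 peaks ranked 1 to 50 there, 41 held the run, and the median score was 116 for peaks with it, against 68.7 for the 899 peaks without it. No peak of pool 1, pool 3 or IgG in the same span of ranks held one. The pool 2 peak at Smad9 was 1 of 27 peaks with the run that scored at least 177.55, and 10 peaks of the list had a run of 60 bp or longer, itself included. In pool 1 the Smad9 peak was the only one with a run that long. No IgG peak overlapped it, and the longest run under any IgG peak was 47 bp. All IgG libraries carry the label of pool 1, so they cannot serve as a control for the runs of pool 2. Whether the run has a part in the peaks at Smad9 was not tested.

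**Figure D5:**
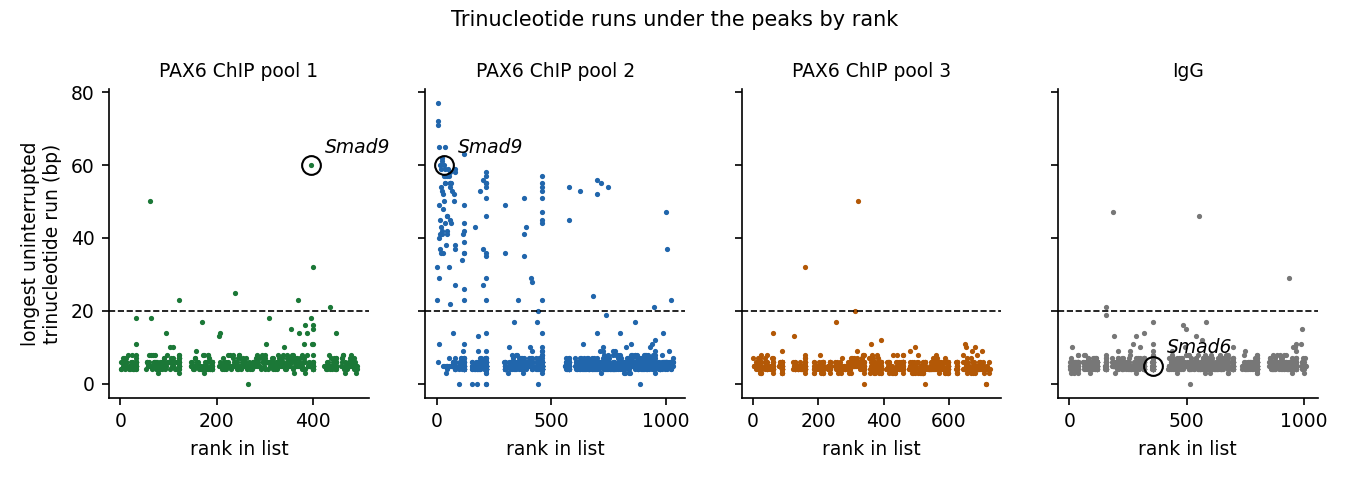
Longest uninterrupted trinucleotide run under each peak (bp) by rank in the 4 lists, with the peaks at SMAD genes circled and the 20 bp limit dashed. In pool 2, 41 of the 50 best ranked peaks lie above the limit, the Smad9 peak with 60 bp among them. No peak ranked 1 to 50 in pool 1, pool 3 or IgG does, and the IgG libraries carry the label of pool 1.

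Of all 29 overlapping pairs of peaks of 2 pools, IgG overlaps included, 14 had a CA or TG run in both peaks. Only the Smad9 pair had the AAC run in both. That this pair held it was fixed, because the run was picked from the Smad9 peaks. It was also rare in pool 1 (1.43%) and pool 3 (0.421%), so nothing is read from its absence in the other pairs.

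Most of the sequence under the Smad9 peaks occurred once in the genome. In the pool 1 peak 452 of 503 stretches of 50 bases (89.9%) occurred once in the genome, and in the pool 2 peak 149 of 162 (92.0%), against 236 of 309 (76.4%) in the IgG peak at Smad6. The medians over whole lists were 95.3%, 94.5% and 88.9% for pools 1, 2 and 3, against 95.5% for IgG. The share of G and C was 47.3% in the pool 1 peak and 42.2% in the pool 2 peak at Smad9, against 47.8% in the IgG peak at Smad6. It was lower in 87.5% of pool 1 peaks, 47.1% of pool 2 peaks and 85.8% of IgG peaks, respectively. The medians of the lists were 41.3%, 42.5% and 44.6% for pools 1, 2 and 3, against 42.9% for IgG.

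Letters of known PAX6 sites were not seen in these peaks. TTCACGC, the core of the site bound by the paired domain, and TAAT followed after 3 free bases by ATTA, a pair of homeodomain sites, were searched on both strands and occurred in neither peak at Smad9 nor in the IgG peak at Smad6. They were rare in all lists. TTCACGC was present in 1.23% (pool 1), 0.491% (pool 2) and 0% (pool 3), against 0.795% for IgG, and the homeodomain pair in 2.25%, 0.982% and 0.140% of these pools, against 0.696% for IgG.

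The other genes of the pathway were taken from lists of 63 ligands, receptors, antagonists, nuclear regulators and responding genes. Of these, 19 (30.2%) had a PAX6 peak of some pool in the gene body or within 100 kb, against the 17.5% of all coding genes given above. Pool 1 had peaks at 4 of them (6.35%, against 4.25% of all coding genes) and pool 2 at 11 (17.5%, against 8.08%). Pool 3 had peaks at 9 (14.3%, against 6.84%) and IgG at 7 (11.1%, against 8.63%). Peaks of at least 2 pools were counted at 5 genes (7.94%), against 1.56% of all coding genes, and overlapping peaks at 0, against 0.251%. Their median gene body was 16.8 kb, close to the 15.4 kb of all coding genes. Only Ltbp1, which codes for a protein that stores latent TGF-β, had a PAX6 peak inside its own body. That is 1 of 63 (1.59%) against 3.11% of all coding genes. The order of the shares thus turned when gene bodies alone were counted, but on a count of 1 gene, so nothing is read from it. None of the 24 PAX6 peaks at pathway genes held the AAC run, which 5.81% of all PAX6 peaks held. With so low a share, nothing is read from this absence. A CA or TG run was held by 10 of the 24, against 55.2% of all PAX6 peaks.

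Among ligands, 6 of 19 had a PAX6 peak (31.6%, against 17.5% of all coding genes). Inhbb, an activin subunit gene, had a pool 2 peak that scored 75.75, above 63.5% of its list. Its pool 3 peak scored 144.25, above 79.3% of its list. Both lay in introns of the neighbour Ralb, 63.0 and 66.6 kb from Inhbb. Bmp6, a ligand of the branch that Smad9 serves, had a pool 3 peak 6.66 kb before its start. It scored 101.43, above 47.8% of its list. The pool 2 peak of Bmp6, 40.0 kb away, scored 67.42, above 37.0% of its list. This pool 2 peak lay closest to the start of another coding gene, Txndc5, at 11.5 kb. The pool 1 peak near Tgfb1, in an intron of Axl, overlapped an IgG peak.

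Among type I, type II and accessory receptors, 4 of 14 had a PAX6 peak (28.6%, against 17.5% of all coding genes). Bmpr1a, a type I BMP receptor, had a pool 2 peak 31.9 kb away in an intron of Ldb3 with a score of 149.47, above 95.3% of its list. Amhr2, the receptor of anti-Müllerian hormone, had a pool 1 peak 0.934 kb from its body that scored 57.81, above 30.5% of its list. A pool 3 peak 77.4 kb away scored 177.78, above 88.8% of its list, but lay 1.11 kb from the start of Sp7. These are peaks of single pools at different places.

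Extracellular antagonists had a PAX6 peak at 3 of 12 genes (25.0%, against 17.5% of all coding genes). Nog, the BMP antagonist noggin, had a pool 2 peak 41.3 kb from its body, closer to the start of Nog than to that of any other coding gene, with a score of 148.03 (above 95.1% of its list). Fst, the activin antagonist follistatin, had a pool 1 peak 29.8 kb away that scored 78.53, above 86.4% of its list. Its pool 2 peak, 83.8 kb away, scored 68.98, above 45.7% of its list. The coding start nearest to both was that of Ndufs4, and the pool 2 peak lay in an intron of that gene. Nuclear partners and regulators had a PAX6 peak at 4 of 11 genes (36.4%, against 17.5%). Among them was Tgif2, a repressor. Its pool 2 peak scored 68.98, above 45.7% of its list, and its pool 3 peak 121.38, above 68.4% of its list. Both lay closer to the start of Sla2, and the pool 3 peak lay in a Sla2 intron and overlapped an IgG peak. Genes that respond to the pathway had one at 2 of 7 (28.6%, against 17.5%). Msx2, a homeobox gene induced by BMPs, had a pool 2 peak 85.3 kb away that scored 123.92, above 93.1% of its list. The coding start nearest to that peak was that of Gm5449, at 32.6 kb.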

How the data were processed

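Peak lists of PAX6 ChIP-seq in EPCs grown as NLBs were used. The authors merged the libraries of each pool, mapped them on mm9 (Bowtie) and called peaks (MACS). Which versions they used is not given in the sources used here. For each peak the authors deposited a score, 10 times the negative log10 of the MACS p-value, which was never below 50.04. It depends on depth, which is unknown here, so precision cannot be given and scores were ranked within a list only.

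Peaks on chromosomes 1 to 19 and X were placed on GENCODE M1 genes by their centres. All 8 members were named. Pathway genes were named where peaks of at least 2 pools were counted or a peak was among the best 10% of its list. Outside this rule, Tgfb1 was named for an overlap with IgG and Ltbp1 for a peak inside its own body. The genes most like Smad9 were at most 5 with overlapping peaks of pools 1 and 2 and none of pool 3 or IgG. The members and lists were chosen with earlier results of these data known. The search for AAC runs was chosen after the sequences were seen. The sequence of the IgG peak at Smad6 is not reported here. Overlap meant at least 1 bp. No test was made, since each pool had 1 list. Alternatives were other distances, score limits, list sizes, overlap rules and lists left out. The counting of genes and of 50-base stretches was tested on simulated data. Python 3.11.15, numpy 2.4.6, numba 0.67.0 and matplotlib 3.10.9 were used.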

Additional observations from a re-analysis of the deposited data

How the results depend on the processing

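With a score of at least 70, or of at least 100, in every list, PAX6 peaks near members fell to 1 and the members with peaks of 2 pools, the overlapping regions and the members with an IgG peak to 0. Where an overlap had to cover 50% of both peaks, 0 overlapping regions were left. Each pool left out in turn gave 1 to 2 PAX6 peaks near members. Members with 2 pools and overlapping regions were then 0 to 1 each. Pathway genes with a PAX6 peak were 12 to 17 of 63, against 10.5% to 14.1% of all coding genes. Both ranges had their lowest value without pool 2 and their highest without pool 1. Without peaks that held an AAC run of at least 20 bp, an alternative chosen after seeing the data, and taken from the Smad9 peaks so that their loss was fixed by it, 0 members had a PAX6 peak, with 0 peaks, 0 members with 2 pools and 0 overlapping regions, against 16.7% of all coding genes with a PAX6 peak.

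Members with an IgG peak were 0 in the gene body only, 0 within 10 kb, 0 within 100 kb of a start site and 2 within 200 kb. The latter were Smad3 and Smad6, both counted through the same IgG peak. Of the 63 pathway genes, 1 (1.59%) had a PAX6 peak in the gene body only, against 3.11% of all coding genes. This turned the order of the shares, but on a count of 1 gene. There were 4 (6.35%, against 4.50%) within 10 kb, 11 (17.5%, against 10.4%) within 50 kb, 12 of 63 (against 8.99%) with a score of at least 70, 9 (14.3%, against 4.32%) with at least 100 and 12 of 63 (against 8.97%) without peaks that held a CA or TG run, also chosen after seeing the data. No paired analysis was possible because the libraries of each pool were merged into 1 list. The limits of these values are the single list per pool, the unknown depth and the distance rule, under which 1 peak counts for several genes.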
